A study of Homo sapiens with 20 samples.

Results

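The genes described here encode proteins of the pre-mRNA splicing machinery. They are the 73 protein-coding genes of 20033 in GENCODE release 44 (GRCh38) whose symbols begin with SRSF, HNRNP, SNRP, SF3A or SF3B, or with LSM and a number. SRSF holds 12 of them, HNRNP 27, SNRP 12, SF3A and SF3B together 9, and LSM 13. The rule uses symbols and no measured value, but it was chosen with earlier results of these data known. Chromatin immunoprecipitation with sequencing (ChIP-seq) was done in PC-3, an established human prostate cancer cell line. The 4 groups compared were wild-type (WT) cells and cells of the SLK knockout line PSD10 (SLK-KO), each with an antibody to the transcription factor c-Myc (MYC) or to RNA polymerase II (POL2), with 3 libraries per group. SLK is a STE20-like protein kinase. The labels call the replicates biological but do not say whether PSD10 is a single clone, and both genotypes were grown and fixed by the same protocol without any other treatment. IgG and Input libraries of the study were not analysed here.

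Splicing removes introns from nascent transcripts and is carried out by small nuclear ribonucleoproteins (snRNPs) together with many RNA-binding proteins. Many SR proteins (SRSF genes) bind exonic enhancers and favour exon inclusion, whereas many hnRNP proteins (HNRNP genes) coat nascent RNA and often repress splice sites. SNRP genes encode the Sm ring and other snRNP proteins, SF3A and SF3B genes the part of the U2 snRNP that recognises the branch point, and LSM genes the Sm-like rings that bind U6 snRNA or take part in mRNA decay. MYC pairs with MAX and binds E-box sequences, and splicing factor genes are among its known targets in proliferating cells.

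Each library was represented by a list of 1-bp peak summits with the score that the peak caller gave. A promoter summit here is one no farther than 1 kb from the start (TSS, transcription start site) of any transcript of the gene, and a gene body summit lies inside the gene and farther than 1 kb from each of its own TSS. Rank 1 is the best score of a list. The MYC lists held 201 to 365 summits in WT and 988 to 1420 in SLK-KO, and the POL2 lists 5047 to 17126 in WT and 15436 to 19017 in SLK-KO. The lists carry no read counts, so sequencing depth is unknown, and list length differs between the genotypes. For that reason the promoter and gene body shares are also given at equal list length, with every list reduced to its best-scored summits, 201 for MYC and 5047 for POL2. The epithelial genes KRT8, KRT18 and KRT19 had POL2 promoter summits in all 6 libraries, EPCAM in 1 WT and 3 SLK-KO libraries and CDH1 in 1 WT library. Of the markers of other cell types, PTPRC, CD3E, CDH5 and COL3A1 had none, PECAM1 had a POL2 summit in 1 WT library, and COL1A1 in 2 libraries of each genotype. The SLK promoter had a POL2 summit in 2 WT and 3 SLK-KO libraries and no MYC summit, and a promoter summit does not check the knockout of its coding sequence.

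MYC summits lay at the promoters of 7 of 12 SRSF genes, 11 of 27 HNRNP genes, 5 of 12 SNRP genes, 2 of 9 SF3A/SF3B genes and 3 of 13 LSM genes in at least 1 library. These 28 of 73 genes stand against 9.66% of all coding genes. All 6 MYC libraries had one at 7 of the 73 genes, against 0.494% of coding genes. The 3 WT libraries had MYC promoter summits at 15.1%, 13.7% and 13.7% of the splicing factor genes, and the 3 SLK-KO libraries at 20.5%, 31.5% and 23.3%. Every SLK-KO library thus lay above every WT library, and the means were 14.2% ± 0.791 for WT and 25.1% ± 5.70 for SLK-KO (± SD over 3 libraries, here and below). Over all coding genes the same shares were 1.42% ± 0.395 and 5.51% ± 0.861, and over the 10765 coding genes with a POL2 promoter summit in at least 1 library they averaged 2.60% and 10.1%. At equal list length the genotypes did not separate: the splicing factor share was 12.3% ± 1.37 in both, beside 1.06% and 1.01% of all coding genes. Splicing factor genes have more annotated TSS than other genes, a median of 7 against 5. With the canonical TSS of each gene alone, the MYC shares were 11.4% in WT and 22.4% in SLK-KO, beside 1.25% and 4.88% of all coding genes.

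**Figure D1:**
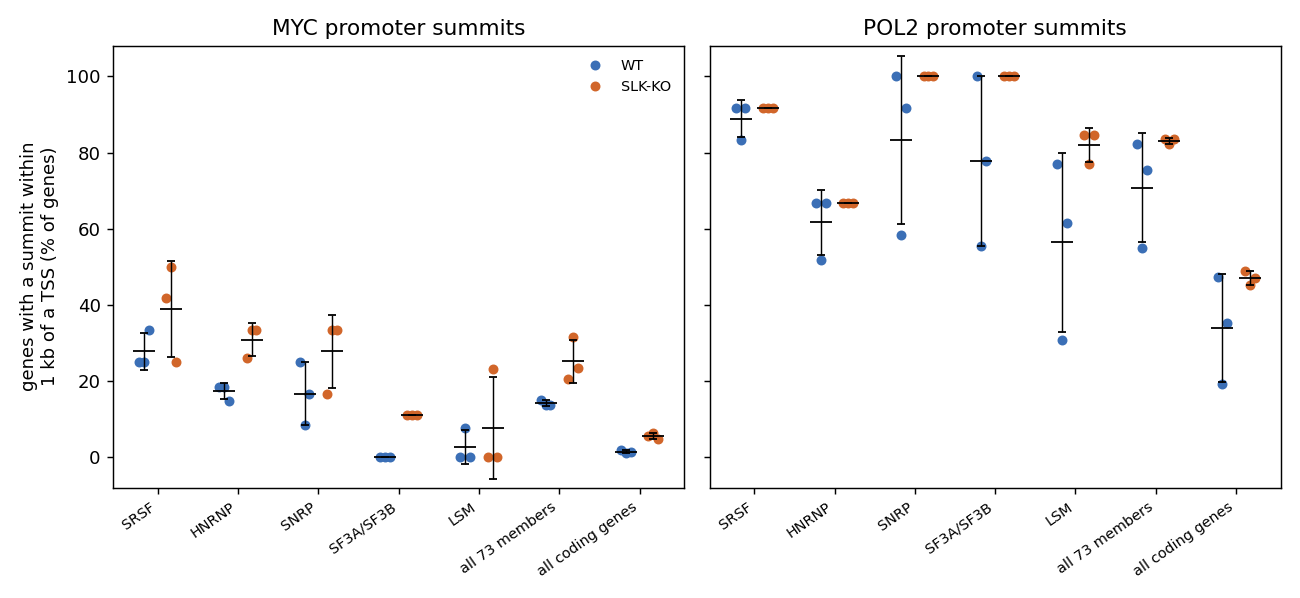
Percent of genes with a MYC (left) or POL2 (right) summit within 1 kb of a TSS, per library, for each family, for all 73 splicing factor genes and for all coding genes. Points are the 3 libraries of WT (blue) and SLK-KO (orange), and horizontal bars with whiskers are means with SD. Counting every family member, mean MYC shares are highest for SRSF genes and lowest for SF3A/SF3B and LSM genes. The WT libraries spread more than the SLK-KO libraries for POL2.

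By family, and counting every member, SRSF genes had the highest mean shares. MYC promoter summits lay at 27.8% ± 4.81 of them in WT and 38.9% ± 12.7 in SLK-KO, with overlapping libraries. HNRNP genes followed at 17.3% ± 2.14 and 30.9% ± 4.28, without overlap between the genotypes. However, 9 of the 27 HNRNP genes and 1 of the 12 SRSF genes had no POL2 promoter summit in any library. Of those with POL2, the SLK-KO libraries had MYC at 7, 9 and 9 of 18 HNRNP and 5, 6 and 3 of 11 SRSF genes. The WT libraries had it at 5, 5 and 4 of the HNRNP and 3, 3 and 4 of the SRSF genes. The order of these families in SLK-KO thus depends on which genes are counted. SNRP genes stood at 16.7% ± 8.33 and 27.8% ± 9.62. None of the 9 SF3A/SF3B genes had a MYC promoter summit in WT, and 1 of the 9 had one in each SLK-KO library, SF3B3 in replicates 1 and 2 and SF3A3 in replicate 3. LSM genes had the lowest shares in SLK-KO, 2.56% ± 4.44 in WT and 7.69% ± 13.3 in SLK-KO. At equal list length the direction turned for SRSF genes (25% in WT and 19.4% in SLK-KO) and LSM genes (2.56% and 0%), and HNRNP genes stood at 16.0% in both. SNRP genes stood at 11.1% and 16.7% and SF3A/SF3B genes at 0% and 3.70%, and the genotypes overlapped in each family. No test was run between families, because genes of a family are not replicates, and families of 9 to 27 genes move by several percentage points with a single gene.

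**Figure D2:**
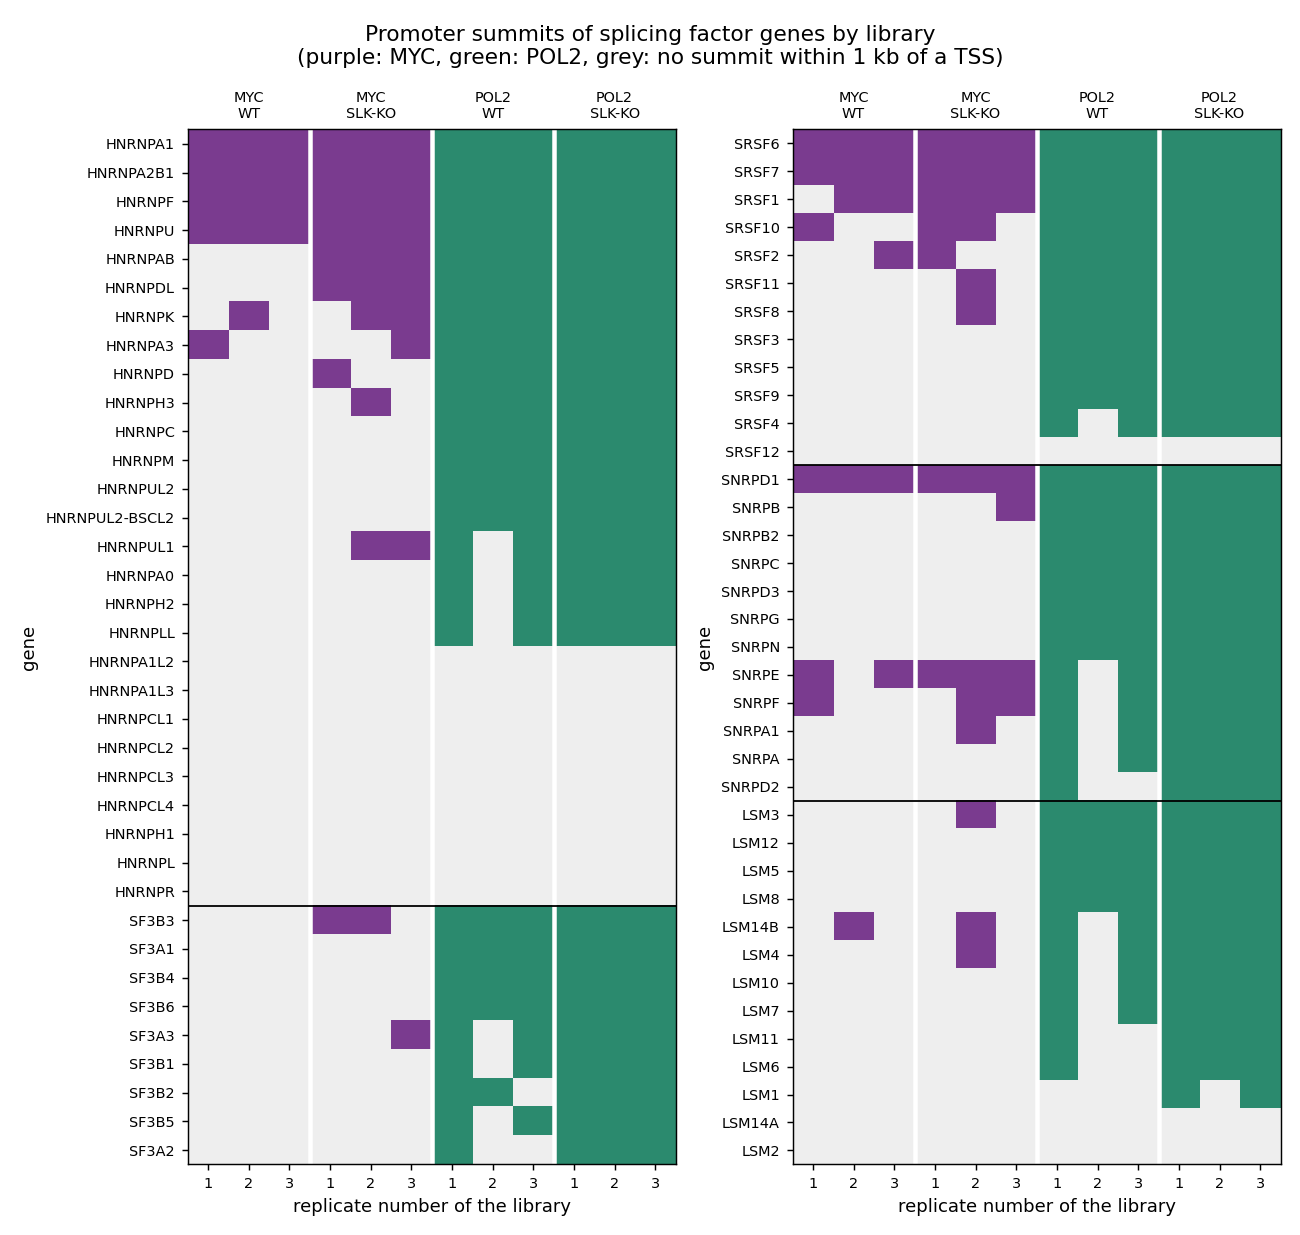
Promoter summits of each of the 73 genes (vertical axis, by family and number of libraries) in each of the 12 libraries (horizontal axis). Purple marks a MYC summit, green a POL2 summit and grey neither. MYC marks sit on genes that also carry POL2 marks in at least 1 library, and of the 29 POL2 gaps at genes with POL2 elsewhere, 21 fall in WT replicate 2.

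SRSF6, an SR protein gene, carried the best-ranked MYC promoter summit of the set in 5 of the 6 libraries, and SNRPD1 in WT replicate 3. Its ranks were 21, 11 and 30 in the WT lists and 9, 4 and 11 in the SLK-KO lists, and the 6 summits lay within 37 bp of each other in intron 1, 298 to 335 bp downstream of the canonical TSS. HNRNPA2B1, which encodes the hnRNP A2 and B1 proteins, ranked 121, 180 and 129 in WT and 44, 55 and 19 in SLK-KO. HNRNPF, a binder of guanine-rich RNA, ranked 171, 121 and 67 in WT and 119, 233 and 204 in SLK-KO. Apart from these 3 genes, MYC summits in all 6 libraries were found at HNRNPA1 (a repressor of many exons), HNRNPU (a nuclear scaffold-binding hnRNP), SNRPD1 (an Sm ring protein) and SRSF7. HNRNPA1 ranked 183, 146 and 175 in WT and 98, 1145 and 173 in SLK-KO. HNRNPU ranked 178, 181 and 155 in WT and 46, 141 and 154 in SLK-KO. SNRPD1 ranked 277, 187 and 24 in WT and 150, 164 and 110 in SLK-KO, so that 1 WT library placed it far higher than the other two. SRSF7 ranked 174, 182 and 230 in WT and 197, 207 and 198 in SLK-KO. At 4 of the 7 genes another coding gene has a TSS within 1 kb and could equally be assigned the summits: CBX5 at HNRNPA1, CBX3 at HNRNPA2B1, GEMIN6 at SRSF7 and a gene without a symbol at SRSF6. Ranks from lists of different lengths do not show a change, and these are given to place each gene within its list.

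Sequences around the MYC summits are shown for 9 of the 10 genes in which the same CACGTG or CACGCG motif lay within 100 bp of the best-scored MYC promoter summit in more than 1 library. Both strands were searched, and capitals mark the motif, which reads CGCGTG where CACGCG lies on the other strand. Coordinates are GRCh38, and each window of 30 bases reads 5′ to 3′ on the strand of the gene.
SRSF6, plus strand, intron 1, chr20:43458219-43458248: aggccgcggcgcCGCGTGgcagggcctcaa
SRSF6, plus strand, intron 1, chr20:43458289-43458318: tacgggcgcgcgCACGTGcgcgtcctggct
SRSF7, minus strand, intron 1, chr2:38751117-38751146: agacggttattcCGCGTGcgtaatggcggc
SRSF10, minus strand, intron 1, chr1:23980010-23980039: ggcctcagccgcCGCGTGggagcgagggcg
SRSF2, minus strand, intron 1, chr17:76736699-76736728: tccgcggcgaagCACGTGgtgcgggcccgg
HNRNPA2B1, minus strand, upstream of the canonical transcript, chr7:26202180-26202209: cggacgcgggacCACGCGccgccctccggg
HNRNPF, minus strand, intron 1, chr10:43408944-43408973: ttccggcaaagcCGCGTGcgctcgacgggc
HNRNPK, minus strand, intron 1, chr9:83979685-83979714: agacctcgggacCGCGTGgtgggtggggga
HNRNPAB, plus strand, intron 2, chr5:178205098-178205127: ttttgttggcgcCACGCGgcggggggaggg
SNRPE, plus strand, upstream of the canonical transcript, chr1:203861557-203861586: cgcccatgccgcCGCGTGaccttcacactt

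The SRSF6 window with CACGCG lay 2 bp from the closest MYC summit and had the motif near the best summit in 6 of 6 libraries, whereas its CACGTG lay 72 bp away. The SRSF7 motif was near the best summit in 4 of 6 libraries, that of HNRNPF in 4 of 6, that of HNRNPA2B1 in 5 of 6, that of SNRPE in 5 of 5, and those of SRSF10, HNRNPK and HNRNPAB in 3 of 3. SRSF2, which encodes the SR protein SC35, had CACGTG near both of its MYC summits. HNRNPA1, HNRNPU and SRSF1 had neither motif within 100 bp of their best MYC summits in any library. Over the 28 genes with a MYC promoter summit, 4 had CACGTG and 14 had CACGCG near a best summit in at least 1 library, and 16 had either.

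In each of the 6 MYC libraries the share of promoter summits with CACGTG was lower, and the share with CACGCG higher, at splicing factor genes than over all coding genes. CACGTG lay within 100 bp of 1 of 12, 1 of 10 and 1 of 10 summits in the WT libraries and of 4 of 17, 3 of 26 and 2 of 19 in the SLK-KO libraries. The mean shares were 9.44% ± 0.962 in WT and 15.2% ± 7.23 in SLK-KO, beside 42.8% ± 2.76 and 30.6% ± 0.479 at all MYC promoter summits. CACGCG lay near 8, 6 and 5 of these summits in WT and 9, 12 and 8 in SLK-KO. Those shares averaged 58.9% ± 8.39 and 47.1% ± 5.48, beside 34.4% ± 4.47 and 31.7% ± 1.61 at all MYC promoter summits. With the motif within 50 bp, the mean over the 6 libraries went from 12.3% to 5.79% for CACGTG and from 53.0% to 43.3% for CACGCG, beside 28.8% and 21.5% at all MYC promoter summits, and at equal list length the means were 12.7% and 58.7%, beside 46.2% and 35.4%. The summits of a library fall on few genes that recur between libraries, so the 6 values are not independent of each other, and no test was made. At POL2 promoter summits of splicing factor genes CACGTG was found at 1.28% to 4.17% and CACGCG at 8.05% to 15.4%, beside 3.87% to 4.58% and 11.0% to 11.5% over all coding genes. In the RefSeq promoter windows of 300 bases (GRCh38.p14), which matched 64 of the 73 genes, CACGTG was present in 12.5% and CACGCG in 25%, against 8.89% and 14.9% of 15345 matched coding genes.

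MYC summits of splicing factor genes lay farther from the canonical TSS than POL2 summits. The best POL2 promoter summits lay at medians of 31 to 44.5 bp downstream of the canonical TSS in the WT libraries and 39 to 42 bp in SLK-KO, beside 34 to 38 and 35 to 36 bp over all coding genes. The best MYC promoter summits of splicing factor genes lay at medians of 227.5 to 282 bp downstream in WT and 137 to 253 bp in SLK-KO, whereas the medians over all coding genes were between -9.5 and 16 bp. These medians, for POL2 and MYC alike, leave out best summits farther than 1 kb from the canonical TSS. They cover 8 to 21 splicing factor genes per MYC library. The offset depends on which TSS is used. Measured to the nearest TSS of any transcript, the medians at splicing factor genes were -69 to -14 bp (negative is upstream), and those of all coding genes -27.5 to -7. The nearest-TSS medians cover all 10 to 23 splicing factor genes with a MYC promoter summit, so the measures also differ in the genes covered. At the 28 genes with a MYC promoter summit, the median summit lay in an intron of the canonical transcript in 14 (intron 1 in 13), outside the transcript in 9, in a coding exon in 3 and in the untranslated part of an exon in 2. This placement was not computed over all coding genes. HNRNPU and HNRNPA2B1 were farthest from the canonical TSS among genes bound in all 6 libraries. The HNRNPU summits lay 1261 to 1421 bp downstream and those of HNRNPA2B1 upstream, at -1571 to -1407 bp. In HNRNPA2B1 they fell in the region shared with CBX3, whose TSS lies within 1 kb of a TSS of HNRNPA2B1. SRSF1, the founding SR protein, had MYC summits in 5 libraries, 4 of them 523 to 648 bp and 1 only 19 bp downstream of its TSS. All 28 genes also had a POL2 promoter summit in at least 1 library, as did 98.4% of the 1935 coding genes with a MYC promoter summit. In the same-numbered POL2 library it was present at 30 of 31 gene and library pairs in WT and 55 of 55 in SLK-KO, within 250 bp at 15 and 25 of these, with median distances of 243.5 and 265 bp. Over all coding genes POL2 was present at 88.2% of such pairs in WT and 95.5% in SLK-KO. It lay within 250 bp at 52.0% and 56.3% of those with POL2, with median distances of 239.5 and 208 bp. MYC and POL2 libraries were matched by number alone, and that match was not checked.

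**Figure D3:**
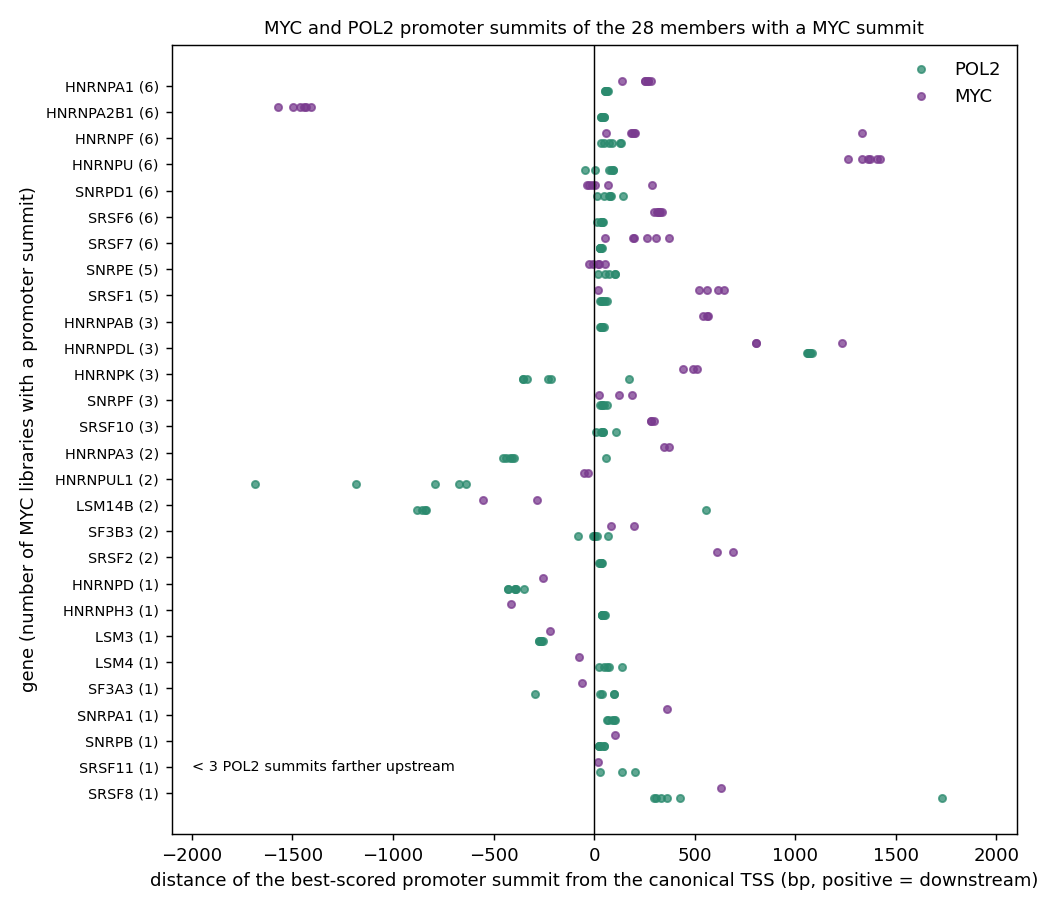
Distance of the best-scored MYC (purple) and POL2 (green) promoter summit from the canonical TSS in bp, 1 point per library, for the 28 genes with a MYC promoter summit (vertical axis, with the number of MYC libraries in parentheses). POL2 points gather just downstream of the TSS at most genes, and MYC points lie farther downstream at SRSF6, SRSF1, HNRNPU and HNRNPAB and upstream at HNRNPA2B1. For SRSF11, 3 POL2 summits near another TSS lie beyond the axis.

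HNRNPAB and HNRNPDL, 2 related hnRNP genes of the A/B and D-like type, had a MYC promoter summit in every SLK-KO library and in no WT library. This count of 2 of 73 stands beside 0.874% of all coding genes. HNRNPAB ranked 259, 116 and 283 and HNRNPDL 703, 340 and 479 in the SLK-KO lists. Every one of these ranks but the 116 lies past the 201 summits of the shortest WT list, and with lists of equal length the count was 0. With the canonical TSS alone it was 1, and with genes that share no promoter it was also 1, since HNRNPDL lies within 1 kb of a TSS of ENOPH1. No gene showed the reverse pattern (0 of 73, and 0% of all coding genes). In all, 13 splicing factor genes had a MYC promoter summit in some SLK-KO library and no WT library, against 7.07% of all coding genes, and 0 had one in WT only, against 0.240%. The SLK-KO lists are longer than every WT list. Between these ends stood SNRPE, an Sm ring gene missing a MYC summit only in WT replicate 2 with ranks 106 and 97 in WT and 80, 106 and 120 in SLK-KO. SRSF1 was missing only in WT replicate 1, with ranks 150 and 113 in WT and 155, 255 and 196 in SLK-KO. SRSF10, HNRNPK (a poly-C binding protein) and SNRPF (an Sm ring protein) had MYC summits in 3 libraries each, 1 of them WT. HNRNPA3, SRSF2 and LSM14B, an LSM gene whose product acts in translational repression, had 1 in each genotype, and HNRNPUL1 and SF3B3, a subunit of the SF3b complex, had 2 in SLK-KO. No MYC summit lay in the body of any splicing factor gene in any library. Of all coding genes, 0.110% had one in WT and 0.785% in SLK-KO. At shares this low, 73 genes are too few to show a difference from all coding genes. The absence also depends on taking the promoter around every TSS. With the canonical TSS alone, 1.826% of splicing factor genes had a MYC body summit in WT and 3.196% in SLK-KO.

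POL2 promoter summits were present at most splicing factor genes. Of the 73, 61 had one in at least 1 library against 53.7% of all coding genes, and 39 had one in all 6 libraries against 18.0%. The WT libraries had POL2 promoter summits at 82.2%, 54.8% and 75.3% of the genes, and the SLK-KO libraries at 82.2% to 83.6%. The means of 70.8% ± 14.3 and 83.1% ± 0.791 overlapped between libraries, and the low value belongs to WT replicate 2, which has the shortest list. Without that library the difference of 12.3 percentage points became 4.34. All coding genes averaged 33.9% and 47.1%. At equal list length the splicing factor shares were 60.7% ± 5.19 and 67.6% ± 4.19, with all coding genes at 22.5% and 24.2%. A POL2 promoter summit in every SLK-KO and no WT library was found at 0 of 73 splicing factor genes (1.54% of coding genes), and the reverse at 0 of 73 (0.00998%). Of the 22 genes with a POL2 promoter summit in 1 to 5 libraries, 16 lacked it only in WT replicate 2. LSM1, a subunit of the decay ring, had POL2 summits in 2 SLK-KO libraries only, at ranks 13988 and 14688.

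By family, POL2 promoter summits were found at 88.9% of SRSF genes in WT and 91.7% in SLK-KO, at 61.7% and 66.7% of HNRNP genes, at 83.3% and 100% of SNRP genes, at 77.8% and 100% of SF3A/SF3B genes and at 56.4% and 82.1% of LSM genes. At equal list length the shares were 86.1% and 91.7% for SRSF, 56.8% and 61.7% for HNRNP, 69.4% and 80.6% for SNRP, 59.3% and 66.7% for SF3A/SF3B and 38.5% and 46.2% for LSM genes, with overlapping libraries in each. The low HNRNP share comes from 9 genes without POL2 in any library. They are HNRNPA1L2 and HNRNPA1L3, HNRNPCL1 to HNRNPCL4 (copies close in sequence to other hnRNP genes), and HNRNPH1, HNRNPL and HNRNPR. The other genes without POL2 were LSM2, LSM14A and SRSF12. Most of these absences extend far beyond the gene and cannot be read as lack of polymerase at it. LSM2, a core subunit of the U6-binding ring, sits in a stretch of 5127725 bp without any POL2 summit in the 6 libraries, which holds the canonical TSS of 184 coding genes. HNRNPL lies in such a stretch of 620537 bp with 20 coding genes, HNRNPR in 438151 bp with 7, LSM14A in 269726 bp with 5 and HNRNPH1 in 208760 bp with 7. The 4 HNRNPCL genes share one of 1078598 bp with 31 coding genes, and HNRNPA1L3 lies in 2312725 bp with 4. SRSF12 (60569 bp with 2 coding genes) and HNRNPA1L2 (34740 bp with 1) lie in shorter stretches. Of the 82 sequence names in the lists, 58 are not among the chromosomes of the annotation used, and the 311 summits on them were assigned to no gene. What leaves these stretches empty was not tested.

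POL2 scores were compared between libraries as rank percentiles among the 3615 coding genes with a POL2 promoter summit in all 6 libraries, where 0 is the best and 100 the worst score. In these equally long rankings SRSF genes stood highest. The 10 ranked SRSF genes had a median percentile of 6.98, from SRSF3 at 0.996 to SRSF8 at 76.2. The 14 ranked HNRNP genes had a median of 24.5, from HNRNPA2B1 at 0.498 to HNRNPD at 77.8. LSM genes (4 ranked) had a median of 35.2, from LSM3 at 22.9 to LSM12 at 60.4. SNRP genes (7 ranked) had a median of 65.2, from SNRPB at 56.5 to SNRPD3 at 95.3, and SF3A/SF3B genes (4 ranked) 72.2, from SF3B4 at 31.8 to SF3B6 at 94.0. Of the 39 genes, 10 were in the best 10% of the ranking and 14 in the worst 50%. Genes that lack POL2 in a library are not in this ranking, so the family medians describe the genes ranked only.

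**Figure D4:**
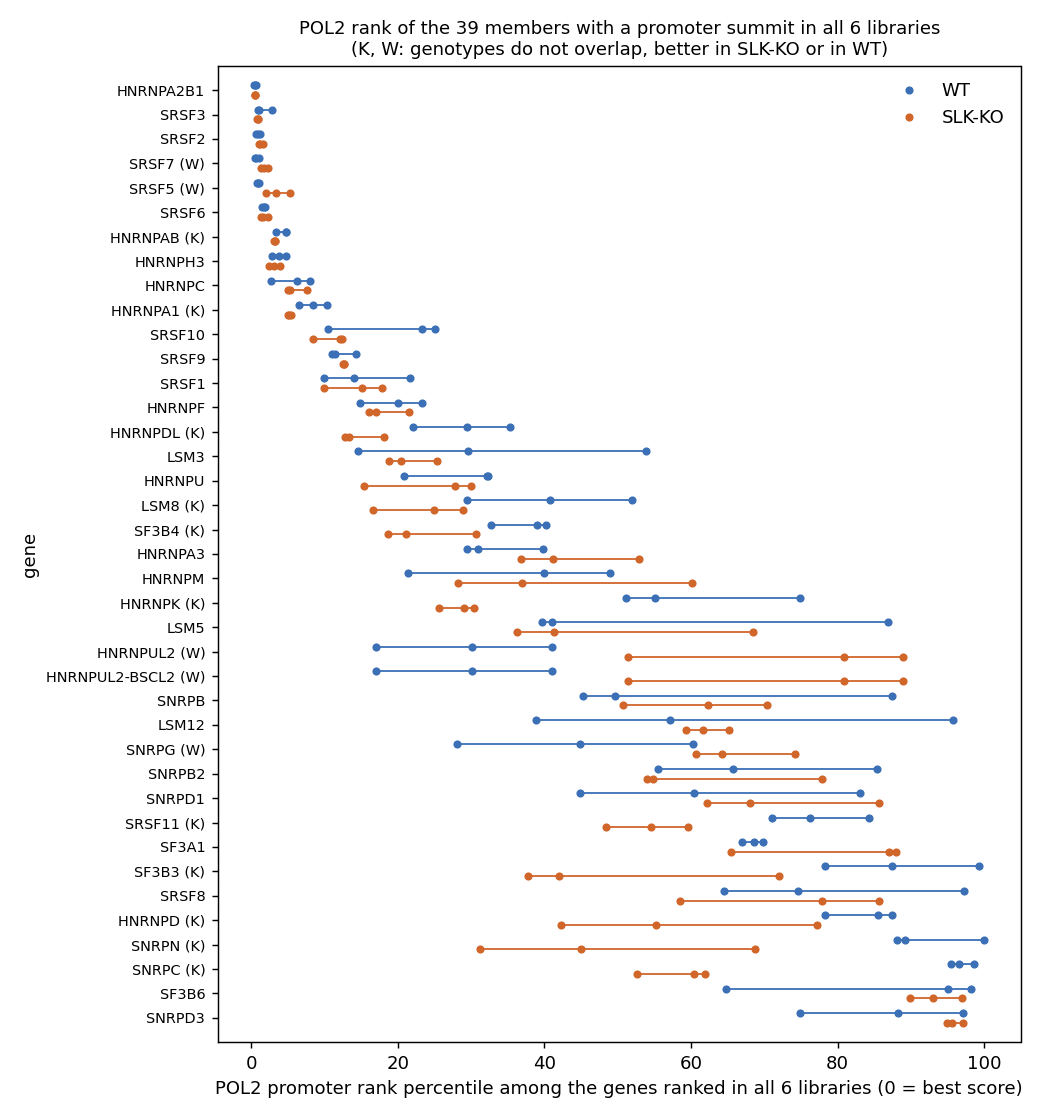
POL2 promoter rank percentile (0 is the best score of 3615 genes) for the 39 splicing factor genes with a POL2 promoter summit in all 6 libraries. Points are libraries, lines their range, blue WT and orange SLK-KO, and K or W after a gene marks genotypes that do not overlap, better in SLK-KO or in WT. Most of the top positions are SRSF and HNRNP genes, with tight ranges, and the ranges widen down the ranking.

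The genotypes did not overlap in POL2 rank at 16 of the 39 genes. The rank was better in SLK-KO at 11 of 39, against 15.0% of all ranked genes, and better in WT at 5 of 39, against 14.9%. The 5 include HNRNPUL2 and its readthrough gene HNRNPUL2-BSCL2, which have the same values and are 1 measurement. With 3 libraries against 3, an exact two-sided permutation test over 20 relabellings cannot give a p below 0.1, and non-overlap is the outcome that reaches it. After Benjamini-Hochberg adjustment over the 3615 genes the smallest p was 0.335, and 0 genes were under 0.05 either adjusted or unadjusted. The median difference (SLK-KO minus WT) was -0.90 percentile points over the 39 genes and 0.083 over all ranked genes. Both counts depend on WT replicate 2: without it they were 21 and 16 of 55 ranked genes, beside 19.8% and 20.6% of all genes ranked then.

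SNRPC, which encodes the C protein of the U1 snRNP, stood at percentiles 96.6, 95.4 and 98.6 in WT and 52.6, 61.9 and 60.5 in SLK-KO. The 3 WT values lie together near the end of the ranking and the 3 SLK-KO values near its middle. SNRPN, an Sm B-like gene, stood at 99.97, 89.3 and 88.1 in WT and 68.7, 31.2 and 45.0 in SLK-KO, with its promoter also assigned to SNURF. SF3B3 stood at 78.3, 99.3 and 87.4 in WT and 37.8, 72.1 and 42.1 in SLK-KO. Its neighbour COG4 has a TSS within 1 kb. HNRNPK stood at 51.2, 55.1 and 74.9 in WT and 30.4, 25.7 and 29.1 in SLK-KO, the latter within 5 percentile points of each other, and shares its promoter with RMI1. HNRNPDL and HNRNPAB, the genes with MYC in every SLK-KO and no WT library, also ranked better for POL2 in SLK-KO. So did HNRNPA1, which had MYC in all 6 libraries. How often coding genes with that MYC pattern rank better for POL2 was not computed. At equal list length no splicing factor gene kept the pattern. HNRNPDL stood at 22.1, 29.5 and 35.3 in WT and 13.4, 18.2 and 12.9 in SLK-KO. HNRNPAB stood at 4.73, 4.81 and 3.43 in WT and 3.32, 3.31 and 3.13 in SLK-KO, where the best WT value is close to the worst SLK-KO value. HNRNPD, SRSF11 and LSM8 were also better ranked in SLK-KO, with mean differences of -25.5, -23.0 and -17.3. In SRSF11 the best POL2 summit lay more than 15 kb upstream of the canonical TSS, at the TSS of another transcript, in 1 WT and 2 SLK-KO libraries.

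HNRNPUL2, an hnRNP U-like gene, was the largest difference toward WT. Its percentiles were 30.2, 41.1 and 17.1 in WT and 88.9, 51.4 and 80.9 in SLK-KO. The readthrough gene HNRNPUL2-BSCL2 has the same summits and values, so the pair is 1 measurement, and TTC9C has a TSS within 1 kb of them. SNRPG, an Sm ring gene, stood at 60.3, 44.8 and 28.1 in WT and 74.1, 64.3 and 60.7 in SLK-KO, where the worst WT value is close to the best SLK-KO value. The SR protein genes SRSF5 and SRSF7 were better ranked in WT by small amounts, with means of 0.950 ± 0.136 against 3.58 ± 1.67 for SRSF5 and 0.789 ± 0.289 against 1.78 ± 0.486 for SRSF7. Of the 73 genes, 26 have a TSS of another coding gene within 1 kb. Among the ranked genes without such a neighbour, 5 of 20 were better in SLK-KO and 2 of 20 better in WT. The shares of all ranked genes, with or without a neighbour, were 15.0% and 14.9%.

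The share of splicing factor genes with MYC was higher between percentiles 0 and 25 of the POL2 ranking than in each later class. The same held for other coding genes. In SLK-KO the best 10% alone stood below the whole of that range for splicing factor genes. Of the 10 genes in the best 10% of the POL2 ranking, 43.3% ± 5.77 had a MYC promoter summit in WT and 56.7% ± 5.77 in SLK-KO. Among the 328 other coding genes of that class the shares were 8.74% ± 2.08 and 27.9% ± 2.33. Between percentiles 0 and 25 the 16 splicing factor genes stood at 39.6% and 60.4%, and the 796 others at 7.50% and 26.0%. Between 25 and 50 there were 9 splicing factor genes at 18.5% and 22.2%, with others at 5.56% and 19.4%. Between 50 and 75 there were 7 at 14.3% and 23.8%, with others at 4.67% and 16.0%. Between 75 and 100, 0% of 7 had MYC in WT and 19.0% in SLK-KO, with others at 3.02% and 9.01%. The classes of splicing factor genes hold 7 to 16 genes, and these shares are a description.

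POL2 summits inside gene bodies were found at 27 of the 73 genes in at least 1 library, against 21.4% of all coding genes. Their number over the 6 libraries was 193, with 133 in HNRNP genes, 46 in SRSF, 10 in SNRP, 4 in LSM and 0 in SF3A/SF3B genes. HNRNPC, which packages nascent transcripts, had 8, 1 and 4 body summits in WT and 11, 8 and 12 in SLK-KO. HNRNPU had 8, 0 and 2 in WT and 5, 2 and 5 in SLK-KO. HNRNPA2B1 had 2, 7 and 8 in WT and 2, 1 and 0 in SLK-KO, so that the library with the shortest POL2 list, WT replicate 2, held 7 of its 20 summits. SRSF3, a small SR protein gene, had 2, 0 and 2 in WT and 3, 1 and 4 in SLK-KO. SRSF10 and HNRNPA3 followed with 11 body summits each. Summed over libraries, the density was 1.18 summits per 10 kb of gene length, beside 0.168 for all coding genes and 0.257 for coding genes with a POL2 promoter summit. HNRNP genes (2.24) and SRSF genes (1.91) were above these values, HNRNPC holding 44 of the 193 summits, while SNRP genes had 0.293, LSM genes 0.160 and SF3A/SF3B genes 0. The canonical exons held 62 of the 193 (32.1%) and cover 13.9% of the gene spans, and with each gene divided into 3 equal parts, 77 lay in the last and 54 in the first. The spans and parts include the positions within 1 kb of a TSS, where no summit counts as a body summit. Neither split was computed over all coding genes. Of the 193, 9 lay within 1 kb of a TSS of another coding gene.

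**Figure D5:**
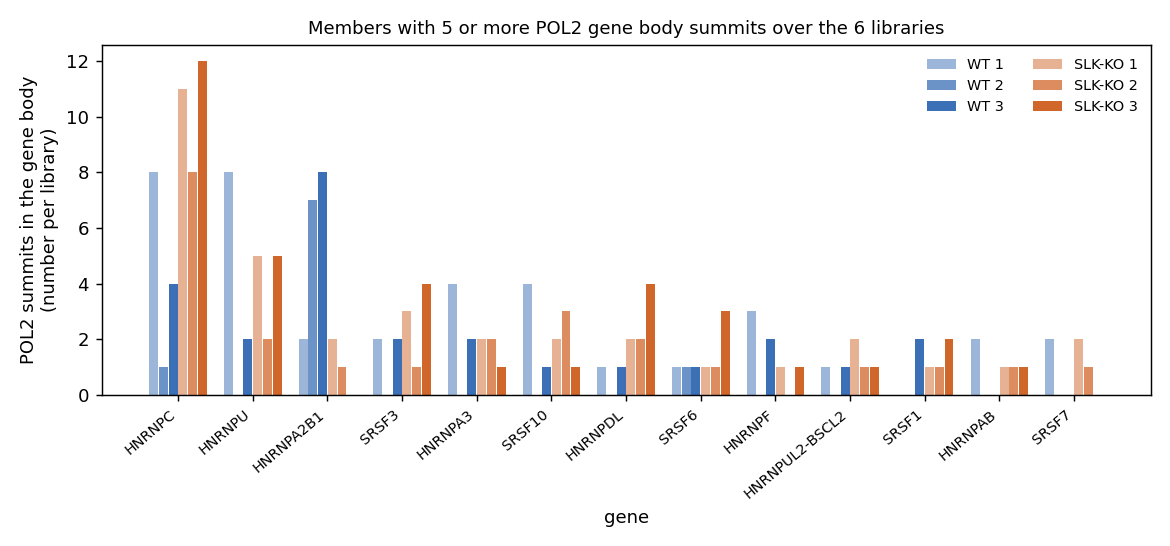
Number of POL2 gene body summits per library (bars, WT in blue and SLK-KO in orange, replicates 1 to 3 from light to dark) for the 13 genes with 5 or more over the 6 libraries. HNRNPC has the highest bars, in the SLK-KO libraries, and HNRNPA2B1 is the gene whose highest bars are WT replicates 2 and 3.

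The share of splicing factor genes with a POL2 body summit was 15.5% ± 10.5 in WT and 22.8% ± 2.09 in SLK-KO, with overlapping libraries, beside 7.54% and 12.9% of all coding genes. The difference of 7.31 percentage points was 1.60 without WT replicate 2 and 11.9 without WT replicate 1. At equal list length it turned to -1.83, with shares of 4.11% and 2.28%. SRSF genes had body summits at 27.8% of members in WT and 47.2% in SLK-KO, HNRNP genes at 23.5% and 32.1%, and SNRP genes at 8.33% and 13.9%. LSM genes stood at 5.13% and SF3A/SF3B genes at 0% in both genotypes. At equal list length the direction turned for SRSF genes (8.33% in WT and 5.56% in SLK-KO) and HNRNP genes (7.41% and 3.70%), and the other families stood at 0%.

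Other genes of the splicing pathway were taken from 7 lists of 93 genes in all. MYC promoter summits in at least 1 library were found at 25 of the 93 (26.9%, beside 9.66% of all coding genes), and POL2 promoter summits in all 6 libraries at 43 (46.2%, beside 18.0%). In all 6 MYC libraries a summit was present at 2 genes, DDX42, an RNA helicase associated with SF3b, and GEMIN6, a component of the SMN complex that assembles Sm rings. GEMIN6 has a TSS within 1 kb of one of SRSF7, so that both genes can be assigned the same summits. A MYC summit in every SLK-KO and no WT library was found at 0 of the 93 (0.874% of all coding genes), and such a POL2 pattern at 1, GEMIN7 (1.54%). By list, at least 1 MYC library had a summit at 7 of 14 genes of snRNP assembly, 6 of 18 other splicing regulators, 2 of 7 SR protein kinases, 3 of 10 U1 and minor spliceosome genes, 4 of 15 U5 and tri-snRNP genes and 3 of 12 partners of the SF3 complexes. None of the 17 genes of the PRP19 complex and the catalytic helicases had one, beside 9.66% of all coding genes, while 6 of the 17 had POL2 in all 6 libraries.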

How the data were processed

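The authors deposited 1 summit list per MYC and POL2 library, called in that library alone, with a score per summit. That deposited score is taken to be a −log10 q-value: in every list its minimum is slightly more than 1.30103, the −log10 of 0.05. The submitters' processing notes name nf-core/chipseq 2.1.0, Trim Galore 0.6.7, BWA 0.7.18-r1243, Picard 3.2.0 and MACS3 3.0.1, and per the labels the reads were processed against GRCh38.p14. Which control and settings the caller used is not given in the sources used here. Of 82 sequence names in the lists, 24 were found in the reference, with 0 summits past a sequence end.

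TSS came from GENCODE release 44 and sequences from GRCh38. Summits were assigned in Python 3.11.15 with numpy 2.4.6, pandas 2.3.3 and scipy 1.17.1, and the steps were tested on simulated data. The gene list, related lists and rules were chosen with earlier results of these data known. Named were genes with MYC in 2 or more libraries, with no POL2 or in 1 genotype only, the best and worst POL2 rank per family, the 5 with most body summits (2 tied for the fifth place), the 10 largest rank differences without overlap, and related genes with MYC in all 6 libraries. SRSF5, LSM1, LSM6, LSM11, SNRPD2, SF3A2, SF3A3 and GEMIN7 were named after their values were seen. One class of marker genes is not reported here. Libraries were the unit of comparison. Alternatives were other promoter windows, score minimums, list lengths and TSS sets, and leaving out each library.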

Additional observations from a re-analysis of the deposited data

How the results depend on the processing

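Of 121 alternatives over 11 results, 98 left the result in place, 21 moved it and 2 reversed it. The 98 include the replicate block for the shares and presence counts, which it could not change. Summits with a score of at least 10 gave a POL2 promoter difference of 25.6 percentage points, and 5 genes with MYC and 3 with POL2 in 3 SLK-KO and 0 WT libraries. At that score 2.74% of splicing factor genes kept a MYC promoter summit in WT and 15.5% in SLK-KO. For counts of genes with summits in SLK-KO only, here and below, no share of all coding genes was computed, so they have no background. The rank counts at that score were 5 (SLK-KO) and 2 (WT) of 19 genes, beside 17.1% and 16.6% of all genes ranked. A score of at least 5 gave 6 of 28 genes better ranked in SLK-KO, beside 15.8%. Equal list length gave a MYC promoter difference of 0, a reversed POL2 body difference of -1.83, and 0 genes with MYC and 1 with POL2 in the SLK-KO libraries only. The MYC gene body difference was 0.457 percentage points with a 500 bp window and 1.37 with canonical TSS only, which left 1 gene with MYC in SLK-KO only, since both shrink the promoter. Leaving out 1 library gave 0 to 4 genes with POL2 in SLK-KO only (4 without WT replicate 1: SNRPD2, SF3A2, LSM6 and LSM11, and 1 without SLK-KO replicate 2: LSM1). It gave 11 to 21 genes better ranked in SLK-KO and 5 to 16 better in WT, both highest without WT replicate 2, which leaves 55 genes to rank. The other cases left 39 or 40. Over all genes ranked, the shares when 1 library was left out were 18.6% to 20.3% (SLK-KO) and 18.5% to 20.7% (WT). Chosen after seeing the data, the restriction to genes with a promoter of their own gave 1 gene with MYC in SLK-KO only and rank counts of 5 and 2 of 20. The shares of all ranked genes, not so restricted, were 15.0% and 14.9%. Also chosen then, a motif window of 50 bp gave mean shares of 5.79% for CACGTG and 43.3% for CACGCG. The nearest TSS of any transcript, likewise chosen then, turned the mean of the library medians of MYC distance from 225.25 to -35.75 bp, over more genes per library. Except where stated, the cause was not tested. In the labels, same-numbered libraries of the genotypes share only a number. Their deviations from the group means correlated at -0.0162 to 0.0210 for MYC and -0.0154 to 0.107 for POL2. These values cannot show whether such libraries shared a batch. With a replicate block the rank counts were 14 and 5 of 39, beside 22.8% and 22.6% of all genes ranked. The block cannot change a share or a presence count, so the promoter differences stayed at 12.3 (POL2) and 11.0 (MYC) by construction. Depth is unknown, and a gene without a summit may lie under the calling threshold of a shorter list.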
